A study of Mus musculus with 4 samples.

Results

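Blood endothelial cells with transcripts of angiogenic tip cells were described in single-cell RNA sequencing of the mouse Achilles tendon, the tendon that joins the calf muscles to the heel bone. A barcode, the tag that marks the RNA of one droplet, was taken when it held at least 500 genes and 1000 UMIs (unique molecular identifiers, each counted as 1 captured RNA molecule), at most 15% mitochondrial UMIs, and at least 2 UMIs of the endothelial genes Cdh5 and Pecam1 together. It also needed at least 2 UMIs of Apln, Prnd and Esm1 together. It had to hold fewer than 2 UMIs of the arterial genes Sema3g, Gja5 and Gkn3, fewer than 2 of the venous genes Selp and Ackr1, fewer than 2 of the lymphatic genes Prox1 and Mmrn1, and at most 1 of the leukocyte gene Ptprc. This chose 1103 of the 36052 barcodes that passed the filters on genes, UMIs and mitochondrial share. The neonate control library gave 298 of them, the neonate injury library 654, the adult control library 55 and the adult injury library 96. Sets of 4 values are given in that order throughout. Cells were released from Achilles tendons with collagenase and DNase. The neonates were at postnatal day 3 and the adults were 6 to 8 weeks old, and at each age 1 library came from uninjured and 1 from injured tendon. The labels do not give the strain, sex or number of the mice, how the tendon was injured, or the time from injury to harvest. No genetic change or drug is named for any group.

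New capillaries grow as sprouts. Each sprout is led by a tip cell, which extends filopodia towards vascular endothelial growth factor, while stalk cells behind it divide and form the tube. Notch signalling, through the ligand Dll4 on the tip cell, limits how many neighbours take the tip state. Apln encodes apelin, a secreted peptide made by sprouting endothelium, and its receptor Aplnr is carried mainly by stalk, capillary and venous endothelium. Esm1 encodes endocan, a proteoglycan secreted by tip cells, and Prnd encodes doppel, a prion-like surface protein of growing vessels. A healthy adult tendon has few vessels, and vessels grow into it after injury.

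The 4 matrices held between 68644322 and 128626912 UMIs. Since each group was 1 library, no test between groups was possible, and intervals are exact 95% intervals that cover counting error only. The members had medians of 14260.5, 7685.5, 13449 and 15258.5 UMIs and 4381, 3095.5, 4200 and 4609 genes. Between any 2 libraries, 3 to 44 passing barcodes had the same sequence, and no sequence was a member in both. Xist without a Y-linked UMI was found in 0%, 64.4%, 96.4% and 88.5% of members, and a Y-linked UMI without Xist in 84.9%, 21.6%, 0% and 0%. The neonate control library thus held male members and the neonate injury library mostly female ones, so sex and injury can be separated in the neonates only through the 141 injured members with Y-linked UMIs alone. RNA of fibroblasts was present in members. The summed level of 9 fibroblast marker genes in CPM (UMIs of a gene per 1e6 UMIs of the summed barcodes) was 3035, 6515, 1357 and 16692 in members, with every marker detected apart from Lum in the adult control members. In the other blood endothelial barcodes it was 29982, 50405, 21124 and 55226 CPM, and in non-endothelial barcodes 30129, 68716, 47274 and 51560 CPM. The other barcodes held at least 2 UMIs of Cdh5 and Pecam1 together. They held fewer than 2 UMIs of each of the tip, arterial, venous and lymphatic gene sets. In them 10 pan-endothelial genes summed to 667, 1496, 2685 and 962 CPM, against 5395, 5013, 5353 and 3795 CPM in members. A purer set of barcodes was therefore also used, chosen after seeing the data, with at least 5 UMIs of 10 pan-endothelial genes and more of these than of fibroblast and mural genes. The purer members numbered 234, 484, 48 and 64, and their fibroblast marker sum was 749, 887, 710 and 885 CPM. Of the 322, 850, 609 and 445 other blood endothelial barcodes, 54, 263, 357 and 111 were purer. Mural marker genes summed to 1142, 1449, 1590 and 828 CPM in members and to 808, 587, 926 and 224 CPM in purer members, with all 9 detected. Hemoglobin and the other erythroid genes summed to 6312, 2848, 23.1 and 10.3 CPM, and macrophage genes to at most 101 CPM, with Ptprc at 0 UMIs in adult control members.

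Barcodes that met the tip-like rule were a large share of blood endothelium in neonatal tendon and a small one in uninjured adult tendon. Of 704 blood endothelial barcodes of control neonates, 42.3% were tip-like (95% exact binomial interval 38.6 to 46.1), and of 1721 of injured neonates 38.0% (35.7 to 40.3). Control adults had 5.36% (4.06 to 6.91) of 1027, and injured adults 13.3% (10.9 to 16.0) of 721. The 2 adult shares count partly different cells. More Esm1 UMIs than Apln and Prnd UMIs together were held by 44 adult control members, which go against the label as described below, and by 5 adult injury members. The remaining members numbered 11 of the 1027 and 91 of the 721 barcodes. The share was thus lowest in the adult control and higher in the injured than in the control adult library, while the intervals of both neonatal libraries overlapped. Since a count threshold depends on depth, every blood endothelial barcode with enough UMIs was thinned to 2000 UMIs, which gave 38.9, 34.8, 2.74 and 13.9% of 457, 1140, 766 and 482 barcodes. Among purer barcodes the shares were 68.0, 54.3, 6.86 and 23.5%, and there the neonate injury share lay below that of the neonate control (interval 50.9 to 57.6 against 62.8 to 72.9). Of all passing barcodes the members were 2.86%, 4.39%, 0.900% and 2.08%. The share of a cell type in a dissociated tissue also depends on how readily its cells are released, which was not measured.

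**Figure D1:**
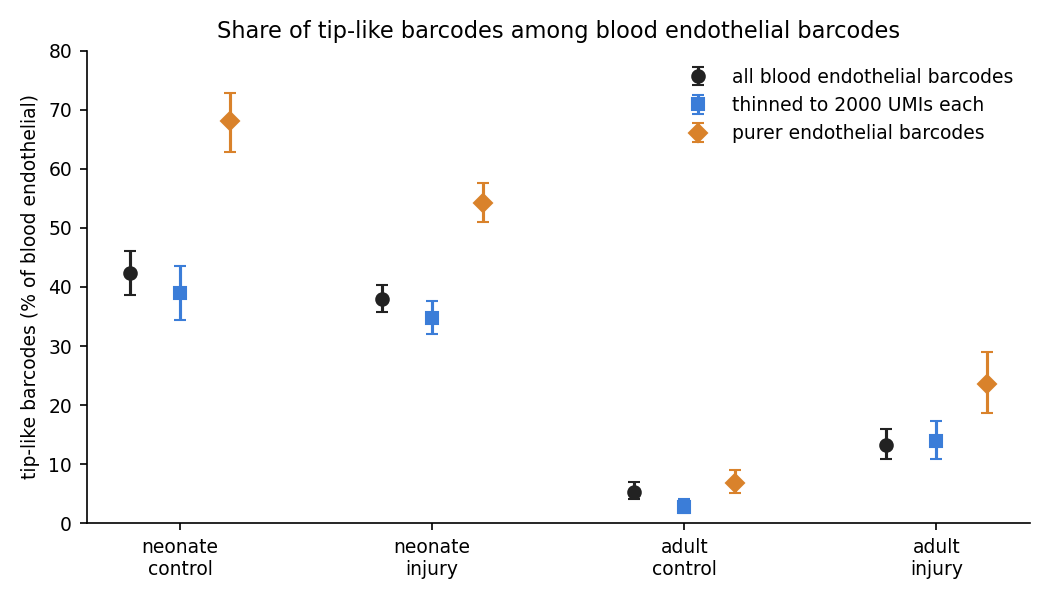
Tip-like barcodes as a percentage of blood endothelial barcodes (y axis) in each library (x axis), for all barcodes (circles), barcodes thinned to 2000 UMIs (squares) and purer endothelial barcodes (diamonds); bars are exact 95% binomial intervals that cover counting error only. In each of the 3 sets both neonatal libraries lie above both adult libraries, and the adult injury library (13.3% of all blood endothelial barcodes) above the adult control (5.36%). Of the adult control members, 44 held more Esm1 than Apln and Prnd UMIs together, against 5 of the adult injury members.

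The 3 genes that chose the cells were used in different proportions. These values describe the choice and are no finding in themselves. Apln was at 363, 368, 47.3 and 517 CPM in the members and found in 76.8%, 73.5%, 16.4% and 81.3% of them. Prnd was at 599, 640.1, 54.6 and 518 CPM and found in 94.0%, 90.2%, 21.8% and 70.8%. Esm1 was at 128, 80.6, 570.3 and 108 CPM and found in 55.7%, 34.4%, 87.3% and 32.3%. The adult control members therefore stood apart from the others, with low Apln and Prnd and high Esm1, and 1 of their barcodes gave 28.9% of the Apln UMIs and 36.5% of the Prnd UMIs. At an equal depth of 2000 UMIs, Apln was found in 37.9, 45.0, 7.41 and 46.2% of members and in 0.408, 0.325, 0 and 0.782% of non-endothelial barcodes, whose median depths before thinning were 10361.5, 5520.5, 10414 and 9907 UMIs. The same shares for Prnd were 63.6, 67.3, 7.41 and 44.1% and 0.306, 0.216, 0.21 and 0.112%, and for Esm1 21.4, 10.8, 53.7 and 15.1% and 0.306, 0.649, 0 and 0.112%. The members' shares are set in part by the rule, which asks for these genes.

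Most members outside the adult control carried Apln and Prnd together. All 3 genes were found in 40.6%, 24.5%, 3.64% and 19.8% of members, and Apln and Prnd without Esm1 in 31.9%, 40.8%, 3.64% and 37.5%. Esm1 was the only one of the 3 in 1.68% and 1.53% of neonatal members, in 69.1% of adult control members and in 5.21% of adult injury members. Prnd alone was found in 9.06%, 18.7%, 3.64% and 10.4%, and Apln alone in 3.36%, 6.12%, 5.45% and 19.8%. Members with exactly 2 rule-gene UMIs, just inside the threshold, numbered 29, 82, 10 and 21. Barcodes with 1 such UMI, just outside it, numbered 58, 159, 31 and 50. The receptor gene Aplnr, which the rule did not use, was at 96.3, 474, 70 and 166 CPM just inside and at 71.1, 374, 85.4 and 89.4 CPM just outside.

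**Figure D2:**
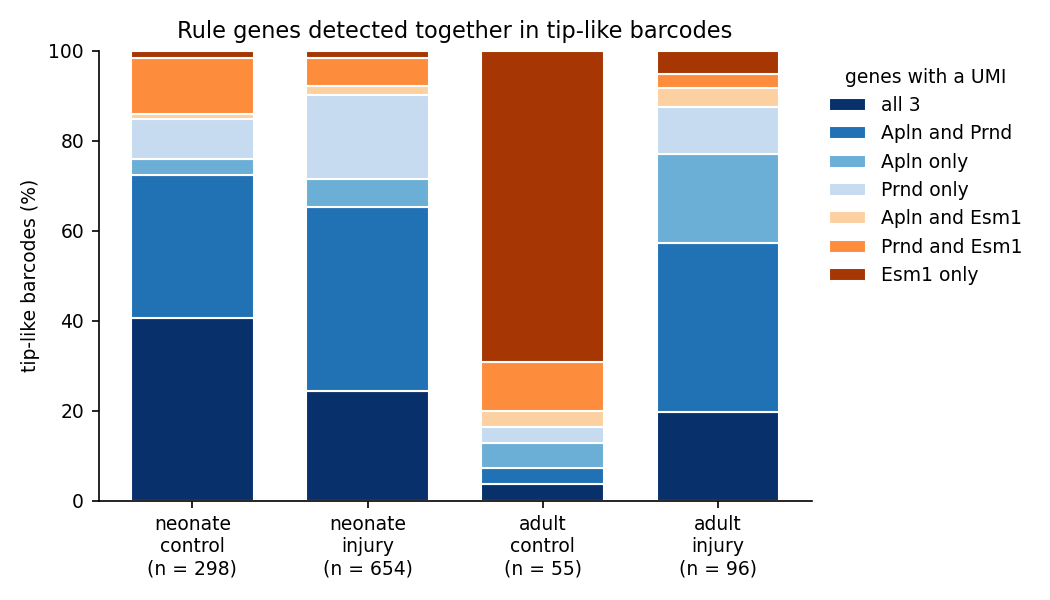
Percentage of tip-like barcodes (y axis) in each library (x axis) by which of Apln, Prnd and Esm1 had a UMI, as stacked bars that sum to 100. Blue shades (all 3 genes, Apln with Prnd, or either of these alone) fill most of both neonatal bars and of the adult injury bar, while Esm1 alone fills 69.1% of the adult control bar.

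Whether the 3 genes mark the same cells was described by choosing barcodes on 2 of them and reading the third, after thinning to 2000 UMIs. Among barcodes chosen on Prnd and Esm1, Apln was found in 37.0%, 41.0%, 2.00% and 50%, against 3.08%, 5.94%, 0.742% and 3.26% of barcodes with neither gene. With Apln and Esm1 as the choosing pair, Prnd was found in 63.2%, 63.2%, 5.88% and 43.6%, against 8.01%, 15.3%, 0.556% and 1.83%. For Esm1 the shares were 19.2%, 9.72%, 18.2% and 11.5%, against 2.41%, 1.40%, 4.94% and 1.35%. The adult control value for Esm1 rests on 2 of 11 barcodes. The gaps were smaller in purer barcodes of the neonates, where Apln was found in 40.3% against 20.7% and 43.1% against 17.1%, Prnd in 67.2% against 33.3% and 66.3% against 39.5% and Esm1 in 21.3% against 18.5% and 11.5% against 5.51% (chosen against neither gene, control then injury). In purer barcodes of the adult injury library the values were 52.8% against 5.21% for Apln, 54.0% against 5.88% for Prnd and 15.8% against 4.17% for Esm1. The intervals of chosen barcodes and of those with neither gene overlapped for Apln and Esm1 in the purer neonate control, for Esm1 in the purer neonate and adult injury libraries, and for all 3 genes in the purer adult control.

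The label of angiogenic tip-like cells was checked against its 5 markers, of which Aplnr and Cdh5 (as 1 gene alone) were not used to separate members from other endothelium. Cdh5, the cadherin of endothelial junctions, was at 2216, 3052, 754 and 1536 CPM in members and at 0 UMIs in non-endothelial barcodes, where the choice of barcodes sets it to 0. Aplnr was at 141, 436, 57.8 and 393 CPM in members (95% Poisson intervals 131 to 150.1, 419 to 452, 43.5 to 75.2 and 367 to 422). In non-endothelial barcodes it was at 0.349, 0.99, 0.261 and 1.79 CPM. The neonate injury and adult injury members were both high in Aplnr and both control libraries low. In purer barcodes Aplnr was at 153, 494, 45.9 and 578 CPM in tip-like and at 299.7, 609, 149.6 and 415 CPM in other blood endothelium. In purer barcodes the receptor was therefore lower in tip-like than in other barcodes in 3 libraries, and higher only in the adult injury library. Over all barcodes the direction was the opposite in both neonatal libraries, where Aplnr and Cdh5 were at least 2-fold higher in tip-like than in other barcodes. So were all 10 pan-endothelial genes there, with median log2 ratios of 2.90 and 1.77, beside -0.05 and 0.12 over all genes counted. This comparison therefore does not bear on the label. Higher Apln, Prnd and Esm1 were set by the rule. Other barcodes with 0 rule-gene UMIs had Aplnr at 12.9, 85.9, 59.6 and 54.9 CPM over all barcodes. For the 10 pan-endothelial genes, the median log2 ratio of purer tip-like over purer other barcodes was -0.15, -0.15, -0.42 and -0.24.

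In both neonatal libraries the label was borne out only in part, since its marker Aplnr was lower in purer tip-like than in purer other barcodes. The adult control members went against the label. Calling a barcode Esm1-led when it held more Esm1 UMIs than Apln and Prnd UMIs together, a split chosen after seeing the data, 44 of 55 adult control members (80%) were Esm1-led, against 7.72% and 3.36% of neonatal and 5.21% of adult injury members. In purer adult control barcodes, the 39 Esm1-led ones held Penk, the precursor of enkephalin peptides, at 1344 CPM, against 0 in the 9 that Apln or Prnd led. Mdga2, a glycosylphosphatidylinositol-anchored adhesion protein, was at 1057 against 28.1 CPM, Chrm3, a muscarinic acetylcholine receptor, at 454 against 46.9 CPM, and Adgrg6, an adhesion G protein-coupled receptor, at 244 against 18.8 CPM. Plvap, which forms the diaphragms of fenestrae and caveolae, was at 2749 against 150.1 CPM, and the vascular endothelial growth factor receptor gene Kdr at 1657 against 394 CPM. Among genes that were higher in the 9 barcodes led by Apln or Prnd, picked after their values were seen, Col4a1 was at 2355 against 764 CPM, the adhesion molecule Mcam at 347 against 116 CPM, the lipase anchor Gpihbp1 at 1182 against 283 CPM and the water channel Aqp1 at 1576 against 117 CPM. The adult control members are therefore called Esm1-led cells with Penk, Mdga2 and Chrm3 below, and no cell type name is given to them. Esm1-led members of the neonatal libraries had little of these genes, with Penk at 6.24 and 0 CPM and Mdga2 at 6.24 and 0 CPM in 17 purer barcodes each, and Chrm3 at 6.24 and 56.9 CPM. The 5 Esm1-led adult injury members had Penk at 156, Mdga2 at 124 and Plvap at 2209 CPM.

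**Figure D3:**
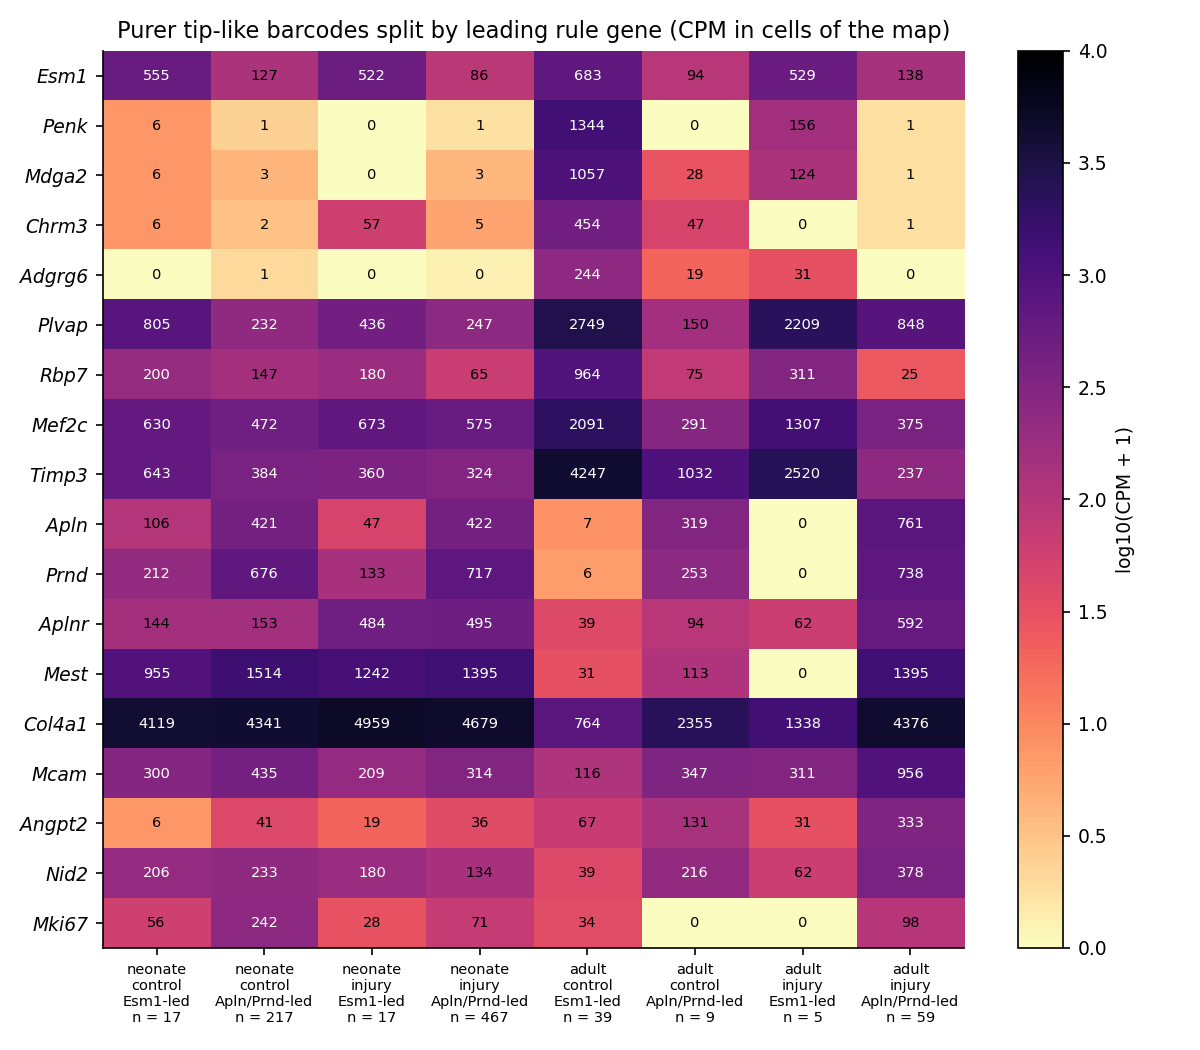
Level of 18 genes (rows; CPM printed in each cell, colour on a log10 scale of CPM + 1) in purer tip-like barcodes of each library, split into Esm1-led barcodes and those led by Apln or Prnd (columns, with the number of barcodes). Penk and Mdga2 reach 1344 and 1057 CPM in the 39 Esm1-led adult control barcodes and are at 6.24 CPM or less in the neonatal columns.

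Genes of sprouting were described first against other endothelium. Over all barcodes, 53 of 3402 genes (1.56%) were at least 2-fold higher in tip-like than in other blood endothelial barcodes in all 4 libraries and 175 (5.14%) at least 2-fold lower. Among purer barcodes 1 of 3175 genes (0.0315%) was higher and 5 (0.157%) were lower, and among all barcodes thinned to 2000 UMIs 3 of 3194 (0.0939%) were higher and 13 (0.407%) lower. The purer set differs in fibroblast and mural RNA, depth and number of barcodes, and the part of each was not tested. The genes with the highest smallest ratio over all barcodes included Vwa1, a matrix protein, at 2.98, 2.28, 2.59 and 3.22, and Mcam at 2.08, 2.06, 1.55 and 3.64, as log2 ratios of tip-like over other. In purer barcodes they were at 0.58, 0.70, 2.06 and 1.17 and 0.58, 0.57, 0.74 and 1.68. Of these purer ratios, Mcam reached 2-fold only in the adult injury library. Col15a1, a basement membrane collagen, was at 0.81, 0.59, 0.57 and 1.24 and the protocadherin gene Pcdh17 at 0.44, 0.43, 0.70 and 1.05 in purer barcodes. Kdr, at -0.24, 0.18, 1.52 and -0.71, the Notch ligand Dll4, at 0.25, 0.34, 0.22 and -0.10, and Plvap, at -0.69, -0.82, 1.82 and 1.26, were named by the same rule over all barcodes. In purer barcodes these 3 lay on both sides of 0.

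The genes named as higher in purer tip-like than in purer other barcodes had small ratios. Csrp1, an actin-associated LIM protein, had log2 ratios of 1.12, 0.76, 0.84 and 1.36, the actin gene Actb 1.00, 0.39, 0.84 and 1.16, the tropomyosin gene Tpm1 0.99, 0.46, 1.61 and 0.88 and Vasp, which promotes filament growth in filopodia, 0.98, 0.43, 0.41 and 0.86. Serpinh1, the collagen chaperone, was at 0.90, 0.40, 0.39 and 0.96, the nuclear transport GTPase gene Ran at 0.70, 0.57, 0.45 and 1.90 and the RNA-binding gene Hnrnpab at 0.70, 0.74, 0.59 and 1.12. The naming rule takes genes that are higher in each library, and most single ratios of these 7 genes were below 2-fold. The summed level of mural marker genes also differed in this comparison. It was 808, 587, 926 and 224 CPM in purer tip-like and 135, 316, 572 and 338 CPM in purer other barcodes. The tip-like sum was thus the lower one only in the adult injury library. The part of mural RNA in the ratios of actin and tropomyosin genes was not tested. Among the lower genes were Eln, which encodes elastin, at -2.76, -3.19, -1.74 and -1.74, the matrix gene Fbln2 at -2.22, -1.63, -2.77 and -2.17 and the taurine transporter gene Slc6a6 at -1.89, -2.12, -1.58 and -3.36. Fcgrt, the neonatal Fc receptor, was at -0.89, -0.63, -1.09 and -1.43, the forkhead gene Foxp1 at -0.76, -0.74, -0.78 and -0.58 and the ectonucleotidase gene Entpd1 at -1.76, -1.13, -1.60 and -0.58. Purer other barcodes had a lower depth than purer tip-like ones, with medians of 3070.5, 2871, 4682 and 4459 against 13866.5, 6093, 12755 and 12361.5 UMIs, and the part of depth in these ratios was not tested. Without the adult control library, 6 of 3395 genes (0.177%) were at least 2-fold higher and 8 (0.236%) lower in the other 3 libraries. The naming rule then also took the imprinted gene Mest, at 0.87, 1.01, 1.14 and 5.09, the replication factor gene Pclaf, at 1.64, 1.62, 4.18 and 2.80, and the cyclin gene Ccnd1, at 1.38, 0.75, 0.29 and 1.21, as higher. As lower it took the chemokine gene Cxcl12, at -1.16, -1.20, 0.23 and -1.84, and the retinol-binding gene Rbp7, at -0.94, -1.19, 1.98 and -2.43, and both were above 0 in the adult control.

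**Figure D4:**
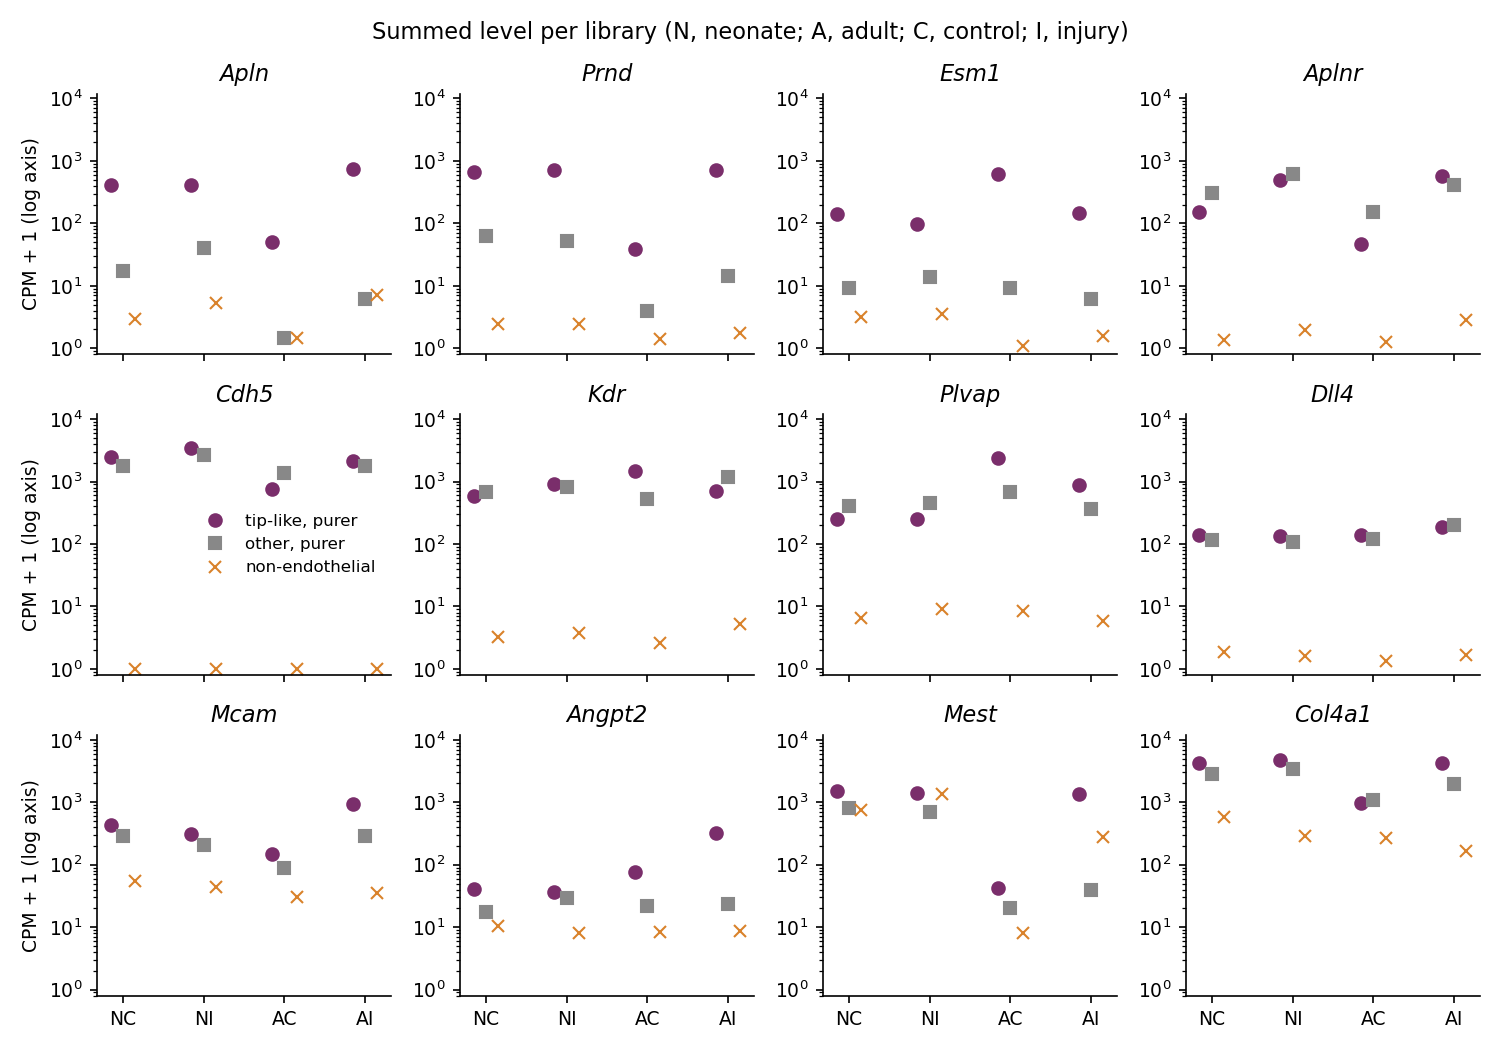
Summed level (CPM + 1, log axis) of 12 genes in purer tip-like barcodes (circles), purer other blood endothelial barcodes (squares) and non-endothelial barcodes (crosses), by library (NC, neonate control; NI, neonate injury; AC, adult control; AI, adult injury). Apln, Prnd and Esm1 chose the cells. Mest stands at 1496, 1391, 42.1 and 1359 CPM in tip-like barcodes, so that the adult control is the low library, and Plvap is highest in the adult control at 2406 CPM.

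Dividing cells were counted as barcodes with at least 2 UMIs of a list of 20 G2/M genes after thinning to 2000 UMIs, for which 280, 618, 54 and 93 members were deep enough. Among members they made up 43.9, 22.8, 1.85 and 30.1%, with intervals of 38.0 to 50, 19.6 to 26.3, 0.0469 to 9.89 and 21.0 to 40.5%. The neonate control members were thus highest and the adult control members, with 1 dividing barcode of 54, lowest among members. In purer barcodes the shares were 46.9, 22.2, 2.13 and 27.4% of tip-like and 26.8, 10.1, 0.3 and 1.96% of other blood endothelium, and the intervals did not overlap in the neonate injury (18.5 to 26.4 against 6.16 to 15.3) and adult injury libraries (16.9 to 40.2 against 0.238 to 6.90). They overlapped in the neonate control (40.3 to 53.6 against 14.2 to 42.9), and the adult control values rest on 1 dividing barcode in each set. Non-endothelial barcodes had 16.1, 7.36, 0.946 and 10.5%, arterial endothelium 38.7, 8.45, 0.694 and 8.47%, venous endothelium 28.0, 19.9, 0.513 and 8.77% and lymphatic endothelium 31.4, 22.1, 0.49 and 47.9%. The proliferation marker gene Mki67 was at 210.5, 63.5, 25.2 and 89.2 CPM in members, the topoisomerase gene Top2a at 192, 99.0, 17.9 and 119 CPM and the survivin gene Birc5 at 219, 83.7, 9.45 and 62.2 CPM. Of the G2/M genes counted in purer barcodes, the median log2 ratio of tip-like over other was 0.74 and 0.88 in the neonatal libraries and 3.68 in the adult injury library, beside -0.10, -0.02 and -0.04 over all genes counted. In the adult control no G2/M gene reached the minimum level.

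In the adult injury library, members carried more sprouting, basement membrane and cell cycle RNA than in the adult control, and less capillary and quiescence RNA. Of 4802 genes counted (at least 20 UMIs in both libraries together and 50 CPM in the higher), 613 (12.8%) were at least 2-fold higher and 649 (13.5%) at least 2-fold lower. In purer barcodes 588 of 4750 (12.4%) were higher and 707 (14.9%) lower. Because 80% of adult control and 5.21% of adult injury members were Esm1-led, injury and this make-up of the members cannot be told apart in these ratios, and the 11 adult control members led by Apln or Prnd are too few for ratios of their own. The fibroblast marker sum also differed, at 1357 against 16692 CPM, so purer ratios are given beside the others. Log2 ratios stand in parentheses after each pair of levels in CPM, control before injury.

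Of the 20 listed sprouting genes, 17 were counted. In the adult injury members 11 of them were higher by 2-fold or more and 1 was lower. Their median log2 ratio was 1.48, beside -0.04 over all genes counted. Aplnr was at 57.8 and 393 CPM in adult control and injury, a log2 ratio of 2.76 (95% counting interval 2.37 to 3.19) that was 3.64 in purer barcodes. Igfbp3, which binds insulin-like growth factors, was at 116 and 1033 CPM (3.15, purer 3.71), and Trp53i11 at 53.6 and 279 CPM (2.37, purer 3.05). Angpt2, the Tie2 ligand that loosens vessels for growth, was at 77.7 and 218 CPM (1.48) and the chemokine receptor gene Cxcr4 at 17.9 and 83.8 CPM (2.19). The injury library was the higher for all 5. Members that did not reach 2-fold included Dll4, at 137 and 136 CPM, and Pdgfb, the ligand that recruits pericytes, at 297 and 341 CPM. The receptor-modifying gene Ramp3 was the lower one, at 55.7 and 2.45 CPM (-4.38).

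Of 5 counted genes of vascular endothelial growth factor signalling, 3 were lower by 2-fold or more in the adult injury members. Flt1 was at 2511 and 697 CPM (-1.85, purer -1.46), Kdr at 1410.5 and 529.6 CPM (-1.41, purer -1.06) and the co-receptor gene Nrp1 at 1615 and 444 CPM (-1.86, purer -1.63), while Nrp2 and the lymphatic receptor gene Flt4 stayed within 2-fold. Among purer members led by Apln or Prnd, 9 in the control and 59 in the injury library, Kdr was on the other side, at 394 and 679 CPM, and Flt1 and Nrp1 were at 1182 and 919.8 and at 1098 and 536 CPM. Dividing cells were also left out, here by at least 2 G2/M UMIs before thinning, which left 46 of 55 control and 39 of 96 injury members. Such a count rises with depth, so this choice also takes out deep barcodes. The median of the list then went from -1.41 to -0.63, with 3 genes lower and 1 higher of 6. Tek and Tie1, the angiopoietin receptors, were at 154 and 160.2 and 172 and 184 CPM. Among Notch genes, Notch1 was at 202 and 234 CPM, Notch4 at 66.2 and 124 CPM and the feedback gene Nrarp at 31.5 and 113 CPM (1.82). Nrarp was the 1 of 8 counted Notch genes that was at least 2-fold higher, and the glycosyltransferase gene Lfng the 1 that was lower (-1.52).

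Basement membrane genes were higher in 9 of 12 counted, and lower in 0. Their median log2 ratio was 1.35, and 1.44 in purer barcodes. Col18a1, the precursor of endostatin, was at 112 and 684 CPM (2.60), Col4a1 at 1023 and 3168 CPM (1.63), Col15a1 at 373 and 1259 CPM (1.75) and the linker protein gene Nid2 at 71.4 and 276 CPM (1.94). The laminin gene Lamb2 was at 69.3 and 36.7 CPM. Basement membrane RNA was thus higher across collagens, laminin Lamc1 and nidogens. Of the matrix-processing genes, the membrane protease gene Mmp14 was at 35.7 and 466 CPM (3.69, purer 4.11), but the ratios of Lox (5.05, purer 1.54) and Loxl2 (3.22, purer -0.22), which cross-link collagen, did not hold their size in purer barcodes. Timp3, a protease inhibitor, was at 3821 and 495 CPM (-2.95), and within purer adult control members it was at 4247 CPM in Esm1-led and 1032 in the others.

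Lists of capillary transport and of resting endothelium had medians below 0 in the adult injury members. In the list of 16 genes of capillary fatty acid and water transport, 7 of 14 counted were lower by 2-fold or more and 0 higher, and their median ratio was -1.18. With dividing cells left out by the same unthinned count, 3 of 14 were lower and 1 higher, and the median was -0.43. Rbp7 was at 809.8 and 35.3 CPM (-4.51), the nuclear receptor gene Pparg at 256 and 43.1 CPM (-2.57), the fatty acid carrier gene Fabp4 at 8154 and 2714 CPM (-1.59) and the fatty acid receptor gene Cd36 at 1075 and 402 CPM (-1.42). Of the list of shear response and quiescence, 8 of 13 were lower and 1 higher, and their median ratio was -1.12. It held the flow-induced factor gene Klf2, at 1134 and 332 CPM (-1.77), Txnip, at 869 and 179.8 CPM (-2.27), and Tsc22d3, at 357 and 57.3 CPM (-2.64). Nos3, the endothelial nitric oxide synthase, was the 1 that was higher, at 41.0 and 82.8 CPM. Among purer members led by Apln or Prnd, Fabp4 was at 12731 and 3139 CPM and Klf2 at 1445 and 283 CPM. Both lists were also lower in the adult injury tip-like barcodes than in other barcodes of the same library, with purer medians of -2.11 and -1.57 beside -0.04 over all genes counted. That comparison sets members against other barcodes of the injury library, so it does not bear on injury over control. Its purer tip-like and other barcodes also differed in median depth (12361.5 and 4459 UMIs) and in the share of dividing cells (27.4 and 1.96%). The part of each was not tested. In the same comparison the sprouting list had a median of 1.09 and the basement membrane list of 0.90.

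The single genes that ranked highest in purer adult injury members were Nox4, a NADPH oxidase, at 2.48 and 321 CPM in purer members (6.70, interval 5.16 to 10.07), and the immune checkpoint gene Cd276, at 2.48 and 319.6 CPM (6.69, interval 5.15 to 10.06). Each had 2 UMIs in the adult control, and over all members their ratios were 6.49 and 6.50. Adam12, a membrane metalloprotease, was at 7.35 and 398 CPM (5.66, purer 5.32) and Mest at 42.0 and 994 CPM (4.55, purer 4.99). These 4 genes were high in the injured library with and without the barcodes rich in fibroblast RNA. For Mest the level was 113 CPM in adult control members led by Apln or Prnd and 1395 CPM in such adult injury members (purer, 9 and 59 barcodes). The matrix genes Postn and Col5a1 had ratios of 5.28 and 5.39 over all members and of 0.55 and 1.24 in purer ones. They were thus far smaller without the barcodes rich in fibroblast RNA. The imprinted genes H19 and Meg3 likewise had 4.55 and 2.02 over all members and -0.04 and -2.40 in purer ones. Snn, the actin-binding gene Cotl1 and the long noncoding RNA Morrbid were at purer ratios of 4.13, 4.07 and 4.03.

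Genes with the lowest ratios were those of the Esm1-led adult control members. Penk was at 1027 and 4.41 CPM (-7.79), Mdga2 at 802 and 2.94 CPM (-7.98), Chrm3 at 378 and 0.49 CPM (-9.01, interval -14.90 to -7.10) and Adgrg6 at 191 and 1.47 CPM (-6.80, interval -9.31 to -5.45). Chrm3 had 1 UMI and Adgrg6 3 UMIs in the adult injury members. The muscle genes Ttn, Myh2, Neb, Tnnc2 and Myl1 also met the naming rule, but a single adult control barcode gave 96.7% to 100% of their UMIs. Interferon-response genes were lower in 5 of 11 counted and higher in 0, with Rsad2 at 184 and 29.9 CPM and Isg15 at 128 and 32.8 CPM. Class I antigen-presentation genes were lower in 4 of 6 (2 with dividing cells left out), with H2-T23 at 99.8 and 13.7 CPM and H2-K1 at 996 and 452 CPM.

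Between the neonatal libraries, injured members had more Aplnr RNA and less RNA of the cell cycle, of inflammation and of stress. Of 4169 genes counted, 153 (3.67%) were at least 2-fold higher and 256 (6.14%) lower, and in purer barcodes 200 of 4133 (4.84%) were higher and 265 (6.41%) lower. Scaling by the median of gene ratios moved all log2 ratios by -0.11 and the counts to 106 (2.54%) higher and 344 (8.25%) lower. With injured members limited to those with Y-linked UMIs and no Xist, 192 of 4205 genes (4.57%) were higher and 297 (7.06%) lower. The median depth was 14260.5 UMIs in control and 7685.5 in injured members.

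Aplnr was at 141 and 436 CPM, and its log2 ratio of 1.63 (interval 1.52 to 1.74) was 1.70 in purer barcodes and 1.79 with only the injured members that had Y-linked UMIs and no Xist. It was 1 of 2 sprouting genes at least 2-fold higher, of 16 counted. The other was Cxcr4, at 18.8 and 63.9 CPM (1.76), while Plaur, the urokinase receptor, at 64.4 and 24.0 CPM (-1.42), and the vasoactive peptide gene Adm, at 80.3 and 36.0 CPM (-1.16), were lower. The list's median was 0.05, beside 0.02 over all genes counted. Apln and Prnd, which chose the cells, had ratios of 0.02 and 0.10. Kdr was at 546 and 801 CPM (0.55), Flt1 at 655 and 843 CPM (0.36) and Dll4 at 125 and 125 CPM, so receptors and Notch ligand stayed within 2-fold. None of the 12 counted basement membrane genes reached 2-fold, and their median was 0.10.

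Other genes higher in injured neonatal members were the phosphodiesterase gene Pde7b, at 24.3 and 102 CPM (2.07, interval 1.82 to 2.34), the transcription factor genes Zbtb20, at 209 and 714 CPM (1.77), and Sox18, at 71.2 and 219 CPM (1.62), and Cxcl12, at 139.9 and 373 CPM (1.41). The metalloprotease genes Adam12, at 35.8 and 106 CPM (1.57), and Adam19, at 43.3 and 126 CPM (1.54), were also higher. Over all members Adam12 was thus higher in the injured library at both ages. In purer neonatal barcodes it was not among the 10 genes named as highest. The fibroblast marker sum was 3035 CPM in control and 6515 CPM in injured neonatal members, and its part in the neonatal Adam12 ratio was not tested. Stard9, Dnm3, Fry and Clec2d had ratios of 1.80, 1.63, 1.55 and 1.46, and H2-K1 was at 179 and 414 CPM (1.21).

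Lower genes included many of the cell cycle, inflammation and stress lists. All 14 counted G2/M genes had ratios below 0 and 10 of them were 2-fold lower or more, around a median of -1.17; of the S-phase genes 8 of 11 were lower, with a median of -1.29. Mki67 was at 210.5 and 63.5 CPM (-1.73) and the DNA helicase gene Mcm3 at 100.1 and 29.9 CPM (-1.74). Of the inflammation and adhesion list, 6 of 8 counted were lower and 1, Cxcl12, was higher. Ccl2, a monocyte chemokine, was at 299.8 and 36.4 CPM (-3.04, interval -3.24 to -2.84), Cxcl1 at 479 and 116 CPM (-2.04), the adhesion molecule Icam1 at 541 and 157 CPM (-1.79) and Cxcl2 at 204 and 26.7 CPM (-2.93). The control library was thus the high one for each of these chemokines. Heat shock and immediate early genes, which tissue dissociation also induces, were lower in 6 of 14 (8 under the other scaling), with Hspa1a at 192 and 22.5 CPM (-3.09) and Junb at 2223 and 889.7 CPM (-1.32); their part in the other ratios was not tested. Histone genes H1f5 and H1f4 (-2.63 and -2.15), the tubulin gene Tubb2b (-2.03), Basp1 (-2.05), Tmem254 (-2.44) and the phosphatase gene Dusp2 (-2.11) were also named as lower. Cma1, a mast cell protease gene named in purer barcodes, had 94.4% of its control UMIs in 1 barcode.

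**Figure D5:**
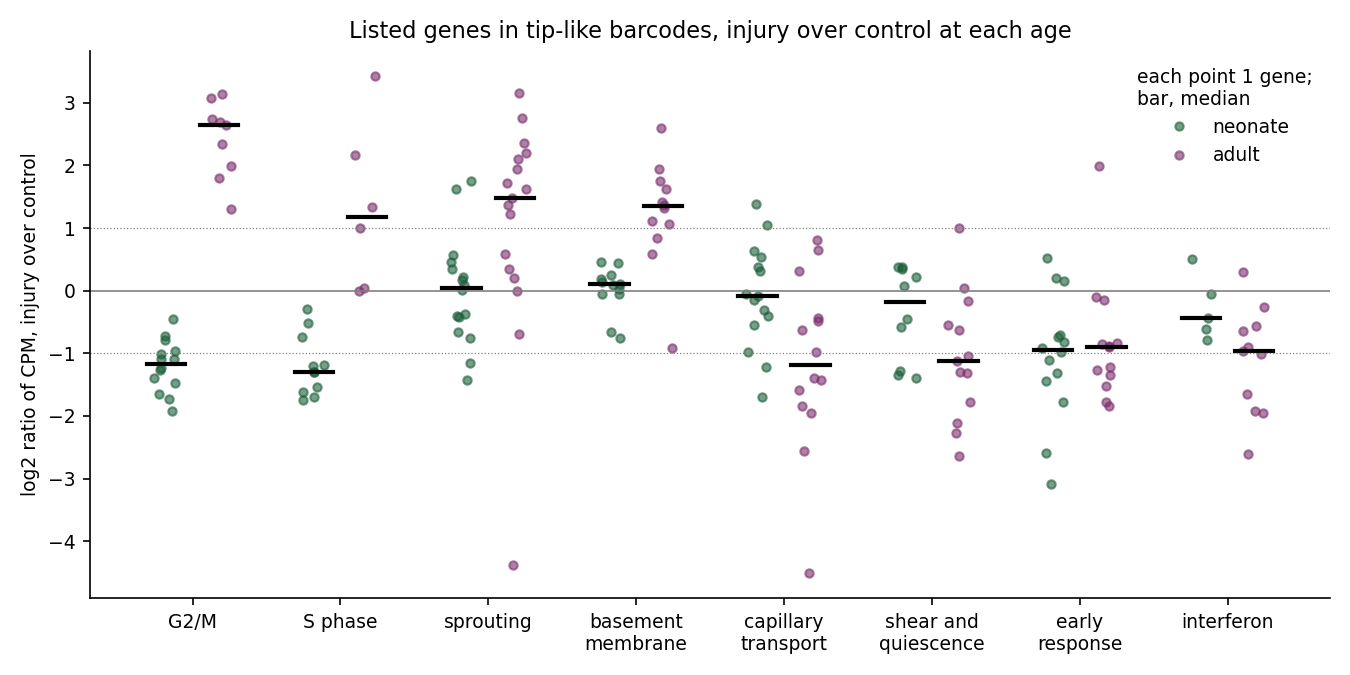
Log2 ratio of CPM in tip-like barcodes, injury over control (y axis), for the counted genes of 8 lists (x axis); each point is 1 gene, green for neonates and purple for adults, bars are medians and dotted lines mark 2-fold. G2/M genes have medians of -1.17 in neonates and 2.65 in adults, and basement membrane genes of 0.10 and 1.35.

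In adults the cell cycle genes lay on the other side. All 9 counted G2/M genes were higher by 2-fold or more in the adult injury members, around a median of 2.65, and 4 of 6 S-phase genes were higher, with a median of 1.17. Mki67 was at 25.2 and 89.2 CPM and Top2a at 17.9 and 119 CPM. Adult injury levels were below those of the neonate control, at 210.5 and 192 CPM. The difference between ages in the injury ratio was not tested.

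Between the uninjured libraries, neonatal members were richer in cell cycle and imprinted growth gene RNA. Of 4632 genes counted, 551 (11.9%) were at least 2-fold higher in the neonate control and 884 (19.1%) lower, and in purer barcodes 580 of 4614 (12.6%) were higher and 975 (21.1%) lower. Scaling by the median of gene ratios moved log2 ratios by 0.28 and the split to 891 (19.2%) higher and 599 (12.9%) lower, so ratios near 2-fold depend on the scaling. Age, sex and the share of Esm1-led members (7.72% against 80%) cannot be told apart here. All 14 counted G2/M genes were higher, with a median of 3.39, as were all 9 of 9 counted imprinted growth genes, with a median of 1.91 (6 of 9 in purer barcodes). Basement membrane genes were higher in 5 of 13 counted, and in 10 under median-of-ratios scaling. Mest was at 1392 and 42.0 CPM in neonate and adult control (5.03, purer 5.13) and H19 at 787 and 13.7 CPM (5.79, purer 5.51). Cldn5, the claudin of endothelial tight junctions, was at 1015 and 141 CPM (2.85) and Fabp5 at 1524 and 236 CPM (2.69). Slc35f1, with 1 UMI in the adult control, had a ratio of 6.24 (interval 4.34 to 12.13) and Asb4, with 3 UMIs, of 5.28 (interval 3.95 to 7.79). Tubb2b and Basp1 had 5.01 and 4.86. The neonate control was the high library for each of these 8 genes.

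Higher in the adult control were Cxcl12, at 139.9 and 2209.8 CPM (-3.98), Timp3, at 439 and 3821 CPM (-3.12), Plvap, at 244 and 2247 CPM (-3.20), the semaphorin gene Sema7a (-2.49) and the netrin gene Ntn4 (-4.41). Thrsp, a regulator of fatty acid synthesis, was at 4.15 and 249 CPM (-5.88). Fmo2, a flavin monooxygenase gene, was at 162 CPM in the adult control members and had no UMI in the neonate control members. Antigen-presentation genes were lower in the neonate control for 6 of 6 counted and interferon-response genes for 7 of 11 (5 and 4 under the other scaling), with H2-K1 at 179 and 996 CPM and Rsad2 at 17.6 and 184 CPM. Both comparisons with the adult control share that library, so their ratios are not independent.

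The rule leaves out barcodes that carry tip genes together with genes of other vessel types. Such barcodes, with at least 2 UMIs of Apln, Prnd and Esm1, numbered 78, 84, 6 and 82. In the adult injury library they were thus nearly as many as the 96 members. Of these 82, 24 held arterial, 27 venous and 39 lymphatic genes, with some in more than 1 group. With arterial and venous barcodes kept, the tip-like share of blood endothelium was 48.3%, 41.8%, 5.84% and 19.3%.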

How the data were processed

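Droplet-based libraries of Achilles tendon cells, 4 in all, were grouped by age and treatment as the labels give them. Per the file headers, Cell Ranger 8.0.1 wrote the deposited matrices, which hold a count of UMIs for each gene in each barcode. The submitters' processing notes name the genome build GRCm39. For 26 symbols listed more than once, the entry listed earliest was used. For each library, UMIs were summed over member barcodes and scaled to CPM. Log2 ratios were taken after adding 0.5 counts, with exact binomial intervals, and CPM values have exact Poisson intervals. Genes at least 2-fold apart were counted among those with at least 20 UMIs in both populations together and 50 CPM in the higher. With 1 library per group no test was run. The members and gene lists were chosen with earlier results of these data known.

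Genes were named by a rule. Between libraries it took the 10 highest and 10 lowest ratios among genes that reached 100 CPM in the higher library with an interval without 0. For tip-like over other it took the 15 highest and 10 lowest genes over all libraries. Of each list described it took up to 5 members with the largest ratios, plus ligands and receptors. Mitochondrial, ribosomal, predicted, hemoglobin, sex-linked, rule and other-class marker genes were passed over, as were genes over 3 times higher in non-endothelial barcodes. Some genes that the rule picks are not described, and Mki67, Top2a, Mcm3, Pdgfb, Cldn5, Fabp5, Lamb2, Nos3 and the levels by leading gene were picked after their values were seen.

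Doublets were not removed in the main values. As an alternative, Scrublet in scanpy 1.11.5 was run per library, and 0.8% of barcodes per 1000, those with the top scores, were taken out. Other alternatives were a stricter filter, 3 rule-gene UMIs, thinning to 2000 UMIs, dividing cells left out, a mean over cells, median-of-ratios scaling and a higher gene minimum. For the leave-out of dividing cells, G2/M UMIs were counted without thinning, so it also depends on depth. It left 94, 400, 46 and 39 members. The purer barcodes, the dropped exclusions, the limit to Y-linked UMIs and the leave-out of the adult control were added after seeing the data. The script for ratios was tested on simulated data. Python 3.11.15, numpy 2.4.6, scipy 1.17.1, pandas 2.3.3 and matplotlib 3.10.9 were used.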

Additional observations from a re-analysis of the deposited data

Results flagged for a closer look

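The tip-like share of blood endothelial barcodes was lower by 4.33 percentage points in injured than in control neonates (-4.33) and higher by 7.96 points in injured than in control adults. The intervals of the neonatal shares overlap. Male barcodes (Y-linked UMIs without Xist) were also counted among tip-like and other blood endothelium together, without arterial and venous barcodes. Of these, 56.6% were tip-like in the injury and 49.2% in the control library, the opposite direction. Their intervals overlap (50.2 to 62.9 against 44.8 to 53.6), so a turn of direction is not shown. In purer barcodes of that kind the shares were 72.7% and 84.9% (64.97 to 79.58 against 79.65 to 89.26). Their median depths, without thinning, were 5638 and 13866.5 UMIs, and the part of depth was not tested. The injury ratio of the G2/M list had a median log2 value of -1.17 in neonatal and 2.65 in adult members, and that of the S-phase list -1.29 and 1.17. Pde7b, a phosphodiesterase gene, had injury ratios of 2.07 in neonates and -3.39 in adults. Tmem254 had -2.44 and 1.51, the dynamin gene Dnm3 1.63 and -1.31, and the focal adhesion gene Lims2 1.37 and -1.52. Each was noted because injury and control differ in opposite directions at the 2 ages, and the difference between the ages was not tested, since each group was 1 library. Of 3649 genes counted at both ages, 16 were at least 2-fold higher in injured neonates and lower in injured adults, and 24 the reverse. Of all genes counted at each age, 3.67% were higher in injured neonates and 13.5% lower in injured adults. For the reverse these shares were 6.14% and 12.8%. Whether genes with opposite directions were more common than these shares alone would give was not tested. In the adult ratios, injury cannot be told apart from the share of Esm1-led members, which was 80% in the control and 5.21% in the injury library.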

How the results depend on the processing

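No paired analysis was possible because each group held 1 library. Shares of 42.3%, 38.0% and 13.3% (neonate control, neonate injury, adult injury) became 38.2%, 33.2% and 10.4% with at least 3 rule-gene UMIs and 33.2%, 31.5% and 8.04% with dividing cells left out. They became 68.0%, 54.3% and 23.5% in purer barcodes, and 48.3%, 41.8% and 19.3% with arterial and venous barcodes kept. The leave-out of dividing cells used unthinned G2/M UMIs and so also depends on depth. Thinning gave 34.8% in the neonate injury and 2.74% in the adult control library. Thinning also gave 258 genes higher in neonatal injury, 323 higher and 241 lower in adult injury, and 575 lower in the neonate than in the adult control, where fewer genes reached the minimum in adults. Median-of-ratios scaling gave 891 of 4632 genes (19.2%, main 11.9%) higher in the neonate control. For tip-like over other barcodes, thinning left 3 genes (0.0939%) higher and 13 (0.407%) lower. The mean over cells left 14 (0.416%) and 102 (3.03%), and purer barcodes 1 (0.0315%) and 5 (0.157%). The remaining 69 counts, with the 718 among them, stayed within 1.5 times the main ones. Of the ratios of named genes under alternatives, 556 stayed within their interval, 177 moved and 2 reversed: Sdk1 in adult injury (-0.0888) and Cma1 between control libraries (-0.2761), both after thinning. Of list medians, 526 stayed and 28 moved. With 55 adult control members at a median of 13449 UMIs, genes under 50 CPM were not compared.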

Other observations

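In the neonate injury library, barcodes with Y-linked UMIs and no Xist were tip-like in 56.6% of 249 (exact interval 50.2 to 62.9, tip-like and other blood endothelium together), and those with Xist and no Y-linked UMI in 39.8% of 1059 (36.8 to 42.8). In purer barcodes the values were 72.7% of 154 (65.0 to 79.6) and 63.3% of 488 (58.9 to 67.6), with intervals that overlap. The neonate control library had 49.2% of 514 such barcodes with Y-linked UMIs, and 84.9% of 232 in purer barcodes. The sexes may come from different pups, and the number of pups is not given.

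Barcodes with tip genes were also found in lymphatic endothelium of the adult injury library, where after thinning Apln was found in 28.8% of lymphatic barcodes, against 0.490% in the adult control and 0.782% of non-endothelial barcodes of the adult injury library. Prnd was found in 27.1% of arterial barcodes of the adult injury library and in 0% of 144 such barcodes of the adult control. Among lymphatic barcodes of the adult injury library, 35 of 73 (47.9%, interval 36.1 to 60.0) were dividing by the count of G2/M UMIs after thinning. Only 29 of these 73 barcodes were purer, against 194 of 209 lymphatic barcodes in the adult control. The part of RNA from other cells in these lymphatic values was not tested.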
